A study of Mus musculus with 6 samples.

Results

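The genes described here are 42 that encode parts of the Polycomb complexes, the MLL (COMPASS) methyltransferase complexes, the BAF and NuRD remodelling complexes, and the histone methylases and demethylases. They were picked by symbol and not by a measured value, although results of these data were already known when the list was drawn up. All 42 were found among the 23406 gene rows of each library, and all 42 passed the filter on low values that left 12266 rows for testing. The cells were mouse embryonic fibroblasts given OSKM, the reprogramming factors Oct4, Sox2, Klf4 and Myc, and total RNA was sequenced at day 7 after removal of ribosomal RNA. All 4 groups came from cells with at least 1 floxed allele of Adar, the gene of the RNA-editing enzyme ADAR1, and differ in the other allele and in the treatment. WT cells were Adar1 Fl/Fl with vehicle (n = 2), and KO cells were Adar1 Fl/Fl with 4-hydroxytamoxifen, 4OHT (n = 2). HET cells were Adar1 Fl/E861A with vehicle (n = 1), and MUT cells were Adar1 Fl/E861A with 4OHT (n = 1); the E861A change is known to abolish editing. 4OHT is commonly used to activate Cre and so delete floxed sequence, but the labels name no Cre line, and 4OHT without recombination was not analysed here, so the drug and the loss of the floxed allele cannot be told apart.

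Polycomb group proteins keep developmental genes silent. Polycomb repressive complex 2 (PRC2) methylates histone H3, and complex 1 (PRC1) binds that mark through its CBX proteins and ubiquitinates histone H2A. Trithorax group proteins, among them the MLL enzymes with their shared core and the BAF remodellers, counter this silencing by methylating H3 at active genes and by moving nucleosomes. NuRD couples a remodelling motor to histone deacetylases. The SUV39H, G9a (EHMT) and SETDB1 enzymes methylate H3 in silent chromatin, and KDM enzymes remove methyl groups. During reprogramming, fibroblast genes have to be shut and pluripotency genes opened, and many of these factors are known to help or to hinder that switch.

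The libraries held an estimated 15500000 to 20500000 fragments each, a rough figure read from the spacing of low values. The replicates correlated at 0.995 over the tested rows in both pairs. Adar itself was listed at 17.0 to 19.6 FPKM (fragments per transcript length and library size) in the 3 vehicle libraries and at 31.3 to 34.2 in the 3 libraries with 4OHT; no source used here names the deleted exons, so this whole-gene level does not check the labels. Of 12 fibroblast markers, 1 rose and 9 fell in KO against WT. Genes of dividing cells moved too: 29 of 30 fell, and their summed level was 1410, 1490 and 1940 FPKM in WT 1, WT 2 and HET against 424, 388 and 634 in KO 1, KO 2 and MUT. All 14 pluripotency markers fell, with summed levels of 665 to 831 FPKM with vehicle and 19.6 to 55.2 with 4OHT. The list holds Pou5f1 (Oct4), at 175 to 272 FPKM with vehicle, and Sox2. Both are among the factors given, so their rows may also count RNA of the added copies. All 5 tested of 7 keratinocyte markers fell as well, with summed levels of 208 to 277 FPKM with vehicle and 63.2 to 95.7 with 4OHT, although Krt5, which defines basal keratinocytes, was near 0 throughout. Of 9 macrophage markers 5 were tested (1 rose, 2 fell) and of 7 endothelial markers 4 (1 rose, 3 fell). The defining genes Ptprc and Cdh5 were near 0 in all 6 libraries. These shifts run alongside every difference reported here, and their part in it was not tested. In bulk RNA, fewer cells that express a gene and less RNA per cell cannot be told apart.

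Most of the 42 genes fell when the Fl/Fl cells received 4OHT. In KO against WT, 28 fell, 4 rose (Phc2, Cbx8, Ring1 and Ash2l) and 10 were not called (limma on log2(FPKM + 1), Benjamini-Hochberg adjusted p under 0.05 over all tested rows). Changes were common in the whole table, where 57.7% of rows were called, 29.5% higher and 28.2% lower. The members' shares were 76.2% called, 9.52% higher and 66.7% lower. Their median log2 difference was -0.40, beside 0.02 for all tested rows. Only 4 members fell at least 2-fold on that scale (Jarid2, Phc1, Ezh2 and Wdr5), or 4 of 42 against a background of 9.38%, so most of the falls were modest.

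**Figure D1:**
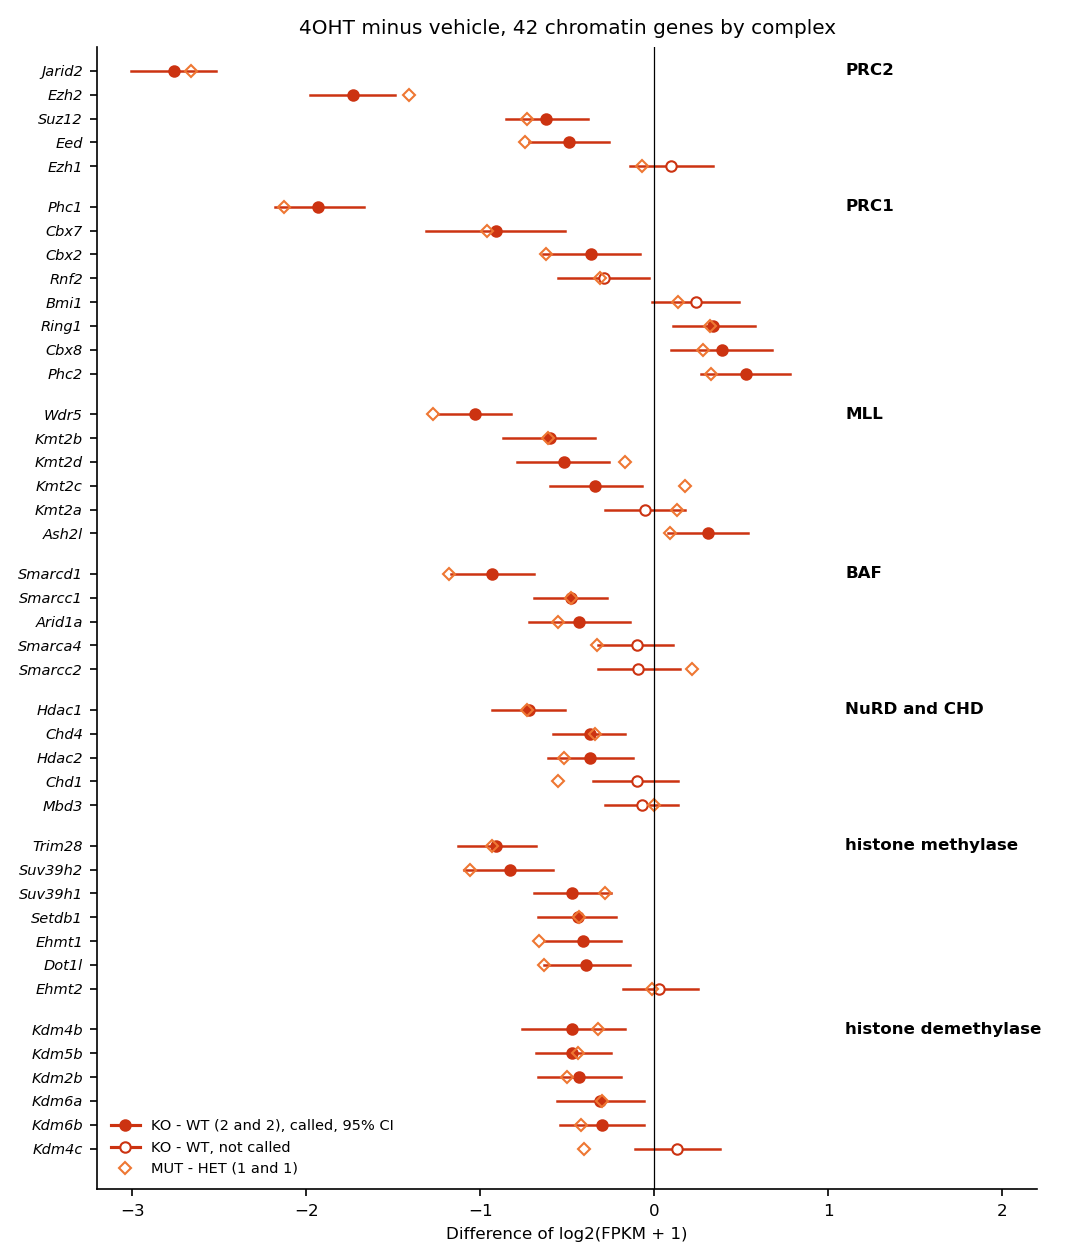
Difference of log2(FPKM + 1) between 4OHT and vehicle for each of the 42 genes, by complex. Circles are KO minus WT (2 libraries each) with the limma 95% interval, filled where called; open diamonds are MUT minus HET (1 library each, no interval). Jarid2, Ezh2 and Phc1 lie farthest to the left, and Phc2 farthest to the right.

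Stretches of promoter are shown first for 4 members whose windows carry the letters of an E2F site. Factors that switch on genes of the cell cycle bind this sequence. These 4 were picked with their falls in KO known, and any part of such factors in the falls was not tested. RefSeq start-site windows (build GRCm38.p6, from 250 bases before to 50 after the start) were matched for 35 of the 42 members. Capitals mark the E2F-type letters; each stretch has 60 bases, reads 5′ to 3′ on the gene's strand and overlaps no annotated exon, and those of Trim28 and Arid1a lie in an intron of a longer transcript of the same gene.
Suz12, chr11:79992861-79992920, plus strand: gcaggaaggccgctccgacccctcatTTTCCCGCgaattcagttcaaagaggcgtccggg
Suv39h2, chr2:3475098-3475157, minus strand: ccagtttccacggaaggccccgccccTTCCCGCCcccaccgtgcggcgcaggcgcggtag
Trim28, chr7:13023947-13024006, plus strand: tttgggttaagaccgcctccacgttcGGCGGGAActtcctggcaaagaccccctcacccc
Arid1a, chr4:133754007-133754066, minus strand: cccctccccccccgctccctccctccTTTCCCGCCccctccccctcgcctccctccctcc
In Suz12 the letters begin 219 bases before the start, in Suv39h2 145, in Trim28 179 (read on the opposite strand) and in Arid1a 55.

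The E2F spellings searched on both strands were TTTCCCGC and TTTGGCGC and TTCCCGCC, of which the first and the last can mark the same place. At least 1 of them stood in the windows of 6 of the 35 members (17.1%): Suz12, Suv39h2, Trim28, Arid1a, Smarcd1 and Ezh2. In Ezh2 they lie just after the start. The share was 3.21% of all 32851 windows and 7.12% of the 9005 tested genes with a window. All 6 of these members fell in KO, as did 66.7% of the 42 members. Other motifs were searched in the same way, and each is given with its share of all windows and then of the tested genes. The cAMP response element TGACGTCA stood in Cbx8 and Suv39h2 (1.79% and 3.72%), the E-box CACGTG in 6 members (7.15% and 11.8%) and the octamer ATGCAAAT in Phc2 alone (1.74% and 1.65%). The interferon-type letters GAAANNGAA stood in Eed alone (8.56% and 8.4%) and the amino acid response letters TGATGNAA in no member (3.97% and 2.71%). The CCAAT box (CCAAT) stood in 12 members, or 34.3% of those with a window (37.4% and 42.9%). The GC box (GGGCGG) stood in 31 members, or 88.6% (35.7% and 70.7%), and the cell cycle homology letters TTTGAA in 4 (17.9% and 13.8%). Of the 6 members with an E-box (17.1%), 1 fell, 2 rose and 3 were not called. Of the 12 with a CCAAT box 9 fell, of the 31 with a GC box 20, and of the 4 with TTTGAA all 4. Whether any motif goes with the falls was not tested. The motifs were picked with the expression results known, and matching letters do not show that a factor binds.

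In PRC2 the largest falls were those of a methyltransferase and of a recruiting partner, Ezh2 and Jarid2. Of the 5 PRC2 members, 4 fell (80.0%, beside 28.2% of all tested rows) and Ezh1 was not called. The median log2 difference was -0.62 in KO against WT and -0.74 in MUT against HET. Jarid2, the cofactor that guides PRC2 to its targets, was at 19.2 and 16.9 FPKM in WT, 1.82 and 1.80 in KO, 23.6 in HET and 2.89 in MUT. Each library with 4OHT lay far below each vehicle library. The fall was 2.76 on the log2 scale (-2.76, SE 0.11, adjusted p = 2.65e-08), the largest among the members, and MUT minus HET was -2.66. Ezh2, the main methyltransferase of the complex, was at 28.9 and 34.1 FPKM in WT, 8.93 and 8.52 in KO, 38.5 in HET and 13.8 in MUT. The groups did not overlap, and the WT mean was 3.61-fold the KO mean (log2 difference -1.73, SE 0.11, adjusted p = 4.87e-07). In the other background the HET level was 2.78-fold the MUT level.

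The scaffold subunits moved less. Suz12, which holds the complex together, was at 29.1 and 32.7 FPKM in WT, 18.7 and 20.9 in KO, 33.1 in HET and 19.5 in MUT. All 3 libraries with 4OHT were below the others (log2 difference -0.62, SE 0.11, adjusted p = 6.06e-04). Eed, which reads the methyl mark, fell by a log2 of 0.49 (-0.49) in KO and by 0.74 (-0.74) in MUT. Ezh1, the second methyltransferase of PRC2 and the one known from non-dividing cells, showed no such shift. It was listed at 6.12 and 6.91 FPKM in WT, 7.26 and 6.84 in KO, 6.29 in HET and 5.94 in MUT. These ranges overlap, and the KO minus WT difference was 0.10 with a 95% interval from -0.14 to 0.34.

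**Figure D2:**
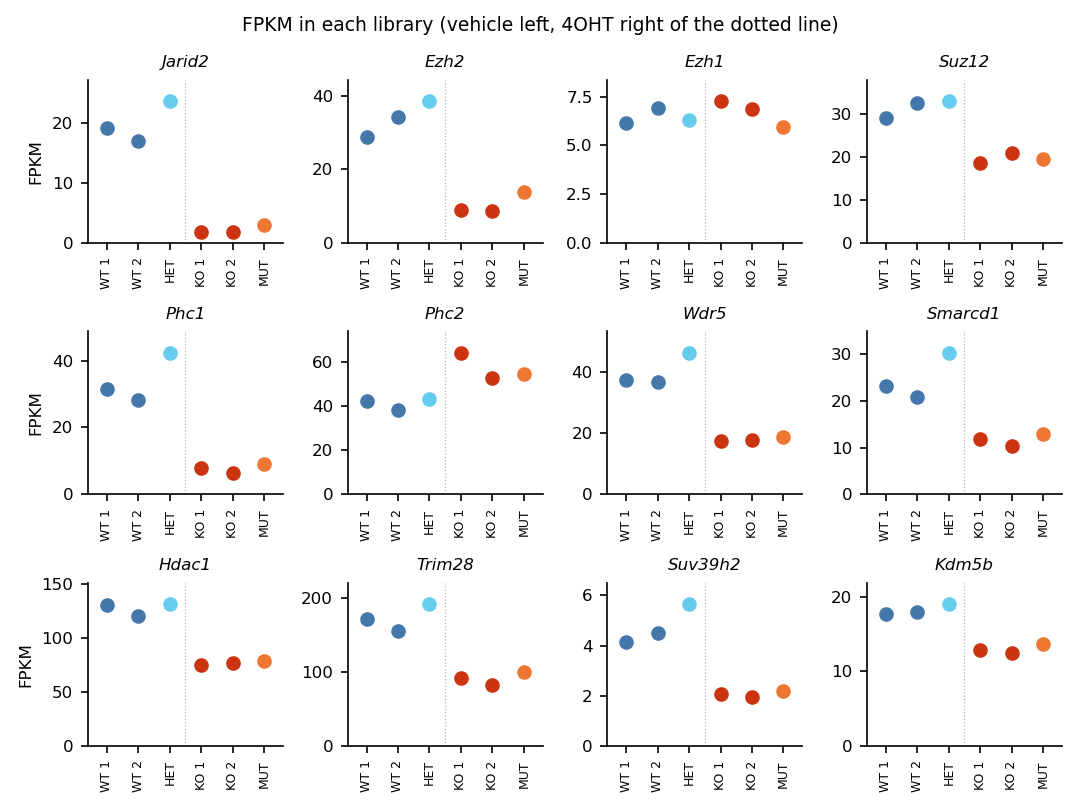
FPKM of 12 members in each of the 6 libraries, with each vertical axis starting at 0. The 3 vehicle libraries (WT 1, WT 2, HET) stand left of the dotted line and the 3 with 4OHT (KO 1, KO 2, MUT) right of it; Ezh1 overlaps, Phc2 is higher with 4OHT, and the other 10 genes are lower with 4OHT in all 3 libraries.

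Since FPKM is scaled per length, 2 genes can be set side by side within a library. Ezh2 stood at 4.72, 4.93 and 6.12 times Ezh1 in WT 1, WT 2 and HET. With 4OHT the ratio was 1.23 and 1.25 in KO and 2.33 in MUT. The order of the 2 enzymes was therefore the same in all 6 libraries, but their levels came close to each other in KO. Jarid2 against Suz12 moved in the same sense, from 0.517 to 0.714 with vehicle to 0.0861 to 0.148 with 4OHT. Suz12 against Eed did not separate, at 0.804 to 0.950 with vehicle and 0.750 to 0.952 with 4OHT.

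PRC1 members moved in both directions. Of 8 members, 3 rose, 3 fell and 2 (Bmi1 and Rnf2) were not called. That is 37.5% higher and 37.5% lower, beside 29.5% and 28.2% of all tested rows, so both shares are near the background. The median log2 difference was near 0 (-0.02 in KO, -0.09 in MUT). Phc1, a polyhomeotic subunit that chains PRC1 complexes together, was at 31.6 and 28.1 FPKM in WT, 7.80 and 6.47 in KO, 42.4 in HET and 8.95 in MUT. The libraries with 4OHT were all lower, and the fall was 1.93 on the log2 scale (-1.93, SE 0.12, adjusted p = 3.59e-07). Its paralog Phc2 went the other way, at 42.4 and 38.0 FPKM in WT, 64.1 and 52.8 in KO, 43.2 in HET and 54.4 in MUT. The 3 libraries with 4OHT were above the 3 vehicle libraries (log2 difference 0.53, SE 0.12, adjusted p = 2.86e-03). The Phc1 to Phc2 ratio was accordingly 0.739 to 0.983 with vehicle and 0.122 to 0.164 with 4OHT.

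The CBX subunits, which read the PRC2 mark, also parted. Cbx7, the main CBX of pluripotent stem cells, was at 6.43 and 4.13 FPKM in WT, 2.72 and 1.89 in KO, 5.11 in HET and 2.14 in MUT. No library with 4OHT reached a vehicle level, although the 2 WT libraries differed more for Cbx7 than for any other member on the log2(FPKM + 1) scale (log2 difference -0.91, SE 0.18, adjusted p = 1.53e-03). Cbx2 fell by 0.36 on the log2 scale (-0.36, adjusted p = 0.0303) and Cbx8 rose by 0.39 (adjusted p = 0.0267). Both are rare transcripts here, between 1.80 and 4.41 FPKM for Cbx2 and between 2.16 and 3.73 for Cbx8. The 2 genes lie side by side on chromosome 11 (Cbx2 at 119022962 to 119031270, plus strand; Cbx8 at 119036305 to 119040969, minus strand; GRCm38, GENCODE M21). Without WT 1 or without KO 2, both lost their call (Cbx2 adjusted p = 0.137 and 0.147, Cbx8 0.182 and 0.0926), and quantile normalization took Cbx2 to -0.11 (adjusted p = 0.487). Cbx7 over Cbx8 was 1.45 to 2.97 with vehicle and 0.507 to 0.795 with 4OHT, so the more abundant of the pair changed.

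Of the ubiquitin ligase core of PRC1, 1 of 3 genes was called. Ring1, one of its ligase subunits, rose by 0.34 on the log2 scale (adjusted p = 0.0183), but its row also counts H2-Ke6 and Slc39a7, so the 3 genes cannot be told apart, and the call was lost without WT 2 (adjusted p = 0.164) or KO 2 (0.0581). Rnf2, the main ligase, differed by -0.29 (adjusted p = 0.0547) and Bmi1, its partner, by 0.24 (adjusted p = 0.0886). Leaving out WT 1 or KO 2 brought Rnf2 past the threshold (adjusted p = 0.0184 and 0.0378), as did median-of-ratios scaling (0.0204), quantile normalization (0.0235), a filter of 5 FPKM (0.0448) and the replicate block (0.0107). Leaving out WT 2 or KO 1 did so for Bmi1 (0.0394 and 0.0485), as did the block (0.0189).

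**Figure D3:**
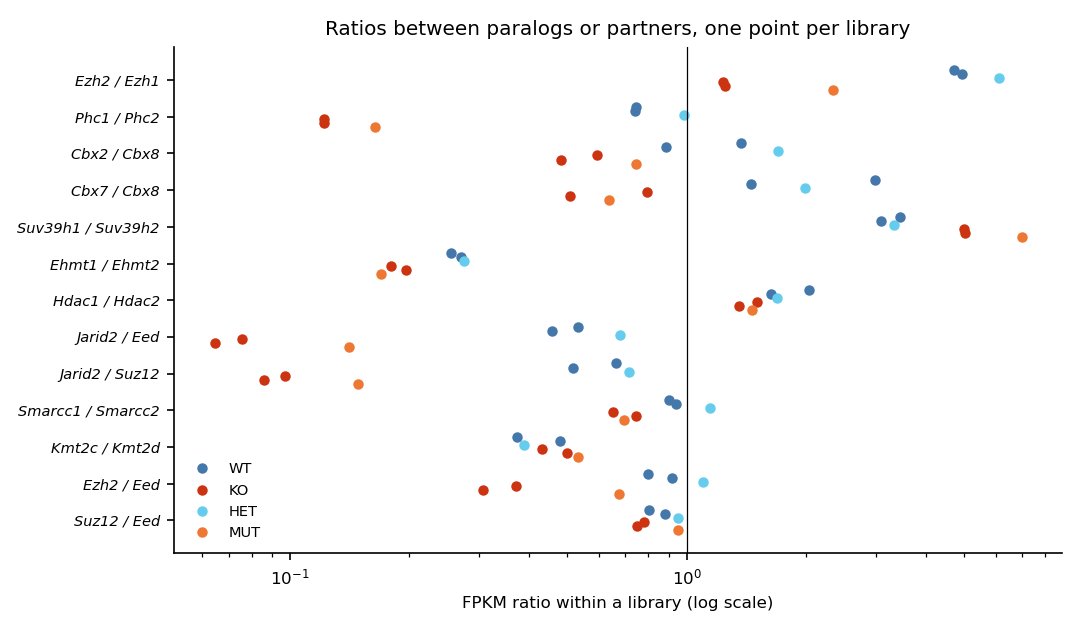
Ratios of FPKM between 13 pairs of members within each library, on a log axis, with 1 point per library coloured by group. In 10 pairs the 3 libraries with 4OHT lie below the 3 vehicle libraries, in 1 (Suv39h1 over Suv39h2) above, and in 2 they overlap. The pairs were chosen with earlier results known, and the direction in which a ratio is written sets above or below. Some genes recur, so these counts describe the chosen pairs only.

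Among the MLL members the shared core and the enzymes moved unevenly. Of 6 genes, 4 fell (66.7%, beside 28.2% of all tested rows), 1 rose (16.7%, beside 29.5%) and Kmt2a was not called. The median was -0.43 in KO (-0.23 after quantile normalization) and -0.04 in MUT. Wdr5, the core subunit that presents the H3 tail to the enzyme, was at 37.5 and 36.9 FPKM in WT, 17.4 and 17.9 in KO, 46.4 in HET and 18.7 in MUT. Replicates were close and the groups far apart (log2 difference -1.03, SE 0.09, adjusted p = 6.69e-06; MUT minus HET -1.27). Ash2l, another core subunit, rose instead, by 0.31 on the log2 scale (adjusted p = 0.0268), with 30.1 to 32.4 FPKM in the vehicle libraries and 34.5 to 40.8 with 4OHT. That call was lost without WT 1, WT 2 or KO 2 (adjusted p = 0.0916, 0.11 and 0.188), after quantile normalization (0.0673) and with no filter on low values (0.0833).

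Of the 4 MLL enzymes, 3 fell in KO. Kmt2b (MLL2) was at 17.2 and 15.3 FPKM in WT, 11.4 and 9.34 in KO, 18.6 in HET and 11.8 in MUT. The 3 libraries with 4OHT were below the others (log2 difference -0.60, SE 0.12, adjusted p = 1.40e-03). Kmt2d (MLL4), the enzyme of enhancers, was at 6.66 and 5.61 FPKM in WT, 4.18 and 3.72 in KO, 5.29 in HET and 4.61 in MUT. Its groups did not overlap, but the gap between HET and MUT (-0.17) was smaller than that between WT and KO (-0.52, SE 0.12, adjusted p = 3.59e-03). Kmt2c, its paralog, fell in KO (-0.34, adjusted p = 0.0316) while MUT stood above HET by 0.18, and the groups overlapped. That call was lost without WT 2, KO 1 or KO 2 (adjusted p = 0.102, 0.116 and 0.0870) and after quantile normalization (0.608). Kmt2a (MLL1) differed by -0.05 with a 95% interval from -0.28 to 0.18, at 6.30 to 6.97 FPKM in all libraries.

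Of the 5 BAF members, 3 fell (Smarcd1, Smarcc1 and Arid1a) and 2 were not called (Smarca4 and Smarcc2), with a median of -0.43 in KO and -0.48 in MUT. Smarcd1 (BAF60A) was at 23.1 and 20.9 FPKM in WT, 11.8 and 10.4 in KO, 30.3 in HET and 12.8 in MUT, on a row that it shares with Asic1. Both KO libraries and MUT were far below the rest (log2 difference -0.93, SE 0.11, adjusted p = 3.73e-05; MUT minus HET -1.18). Smarcc1 (BAF155), the scaffold typical of the pluripotent form of BAF, was at 33.0 and 32.9 FPKM in WT, 23.6 and 23.2 in KO, 36.6 in HET and 26.1 in MUT. The difference was far larger than the gap between replicates (-0.48, SE 0.09, adjusted p = 1.40e-03). Its paralog Smarcc2 (BAF170) differed by -0.09 in KO and 0.22 in MUT, and Smarcc1 over Smarcc2 was 0.9 to 1.14 with vehicle and 0.650 to 0.743 with 4OHT. Arid1a, the DNA-binding subunit, was at 25.9 and 23.1 FPKM in WT, 20.5 and 15.6 in KO, 28.1 in HET and 18.9 in MUT. The groups did not overlap (log2 difference -0.43, SE 0.13, adjusted p = 0.0167), but the 2 KO libraries were apart, and the call was lost without KO 2 (-0.24, adjusted p = 0.120) or WT 1 (-0.35, 0.116). Smarca4 (BRG1), the ATPase, differed by -0.10 with a 95% interval from -0.32 to 0.11.

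The NuRD and CHD group had 3 falls among 5 genes (Hdac1, Chd4 and Hdac2), with medians of -0.37 in KO and -0.52 in MUT. Hdac1, a histone deacetylase, was at 130 and 120 FPKM in WT, 74.7 and 76.4 in KO, 131 in HET and 78.7 in MUT. The 3 libraries with 4OHT fell in a narrow band well below the others (log2 difference -0.72, SE 0.09, adjusted p = 1.02e-04; MUT minus HET -0.73). Its paralog Hdac2 was at 63.8 and 73.9 FPKM in WT, 49.7 and 56.7 in KO, 77.8 in HET and 54.0 in MUT. The groups did not overlap (log2 difference -0.37, SE 0.11, adjusted p = 0.0163), and the call was lost without WT 2 (-0.26, adjusted p = 0.148). Chd4, the NuRD motor, was at 67.7 and 65.4 FPKM in WT, 51.1 and 51.0 in KO, 69.5 in HET and 54.6 in MUT. It was lower in all libraries with 4OHT (log2 difference -0.37, SE 0.09, adjusted p = 5.60e-03).

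Mbd3, the subunit that joins the deacetylase and remodelling parts of NuRD, differed by -0.07 with a 95% interval from -0.28 to 0.14, at 87.4 to 97.0 FPKM in all libraries. Chd1, a remodeller of open chromatin outside NuRD, was at 12.8 and 15.1 FPKM in WT, 12.4 and 13.3 in KO, 15.6 in HET and 10.4 in MUT. The WT and KO ranges overlapped (log2 difference -0.10, SE 0.11, adjusted p = 0.447), while MUT was the lowest and HET the highest library, 0.55 apart on the log2 scale (MUT minus HET -0.55).

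Of the 7 histone methylase genes, counted with the corepressor Trim28, 6 fell (85.7%, beside 28.2% of all tested rows) and Ehmt2 was not called. The medians were -0.44 in KO and -0.63 in MUT. Trim28 (KAP1), which brings SETDB1 to repeats and imprinted loci, was at 171 and 155 FPKM in WT, 91.2 and 81.9 in KO, 191 in HET and 99.4 in MUT. It was the most abundant member in WT and fell in all libraries with 4OHT (log2 difference -0.91, SE 0.10, adjusted p = 3.22e-05; MUT minus HET -0.93). Setdb1 itself, at 12.6 to 15.0 FPKM with vehicle and 8.88 to 10.9 with 4OHT, fell by 0.44 on the log2 scale (-0.44, adjusted p = 3.57e-03). Suv39h2, a methylase of constitutive heterochromatin, was at 4.16 and 4.52 FPKM in WT, 2.05 and 1.94 in KO, 5.65 in HET and 2.19 in MUT. The groups were well apart (log2 difference -0.83, SE 0.12, adjusted p = 1.39e-04; MUT minus HET -1.06). Suv39h1, its X-linked paralog, was at 14.4 and 14.0 FPKM in WT, 10.2 and 9.74 in KO, 18.8 in HET and 15.3 in MUT. It fell in KO (-0.47, SE 0.10, adjusted p = 2.33e-03), but MUT was above both WT libraries, so the 3 and 3 overlapped. Suv39h1 over Suv39h2 was 3.09 to 3.45 with vehicle and 4.98 to 6.97 with 4OHT.

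The remaining methylases were the EHMT pair and Dot1l. Ehmt1 (GLP) fell by 0.41 on the log2 scale (-0.41, adjusted p = 4.67e-03), whereas its partner Ehmt2 (G9a) differed by 0.03 with a 95% interval from -0.18 to 0.25. Ehmt1 over Ehmt2 was 0.254 to 0.275 with vehicle and 0.170 to 0.196 with 4OHT. Dot1l, which methylates the body of H3 at transcribed genes, fell by 0.39 (-0.39, adjusted p = 0.0118), a call lost without WT 1 or KO 2 (adjusted p = 0.0725 and 0.0895).

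Of the 6 histone demethylase genes, 5 fell (83.3%, beside 28.2% of all tested rows) and Kdm4c was not called. The medians were -0.37 in KO and -0.41 in MUT. Kdm5b (JARID1B), which strips the active mark of promoters, was at 17.7 and 17.9 FPKM in WT, 12.8 and 12.4 in KO, 19.0 in HET and 13.7 in MUT. The groups did not overlap (log2 difference -0.47, SE 0.10, adjusted p = 1.98e-03). Kdm2b, which also brings a PRC1 form to CpG islands, was at 11.6 and 10.3 FPKM in WT, 8.08 and 7.64 in KO, 11.7 in HET and 8.02 in MUT. It was lower in all libraries with 4OHT (-0.43, SE 0.11, adjusted p = 5.79e-03), with an adjusted p of 0.0605 without WT 1. Kdm4b, a demethylase of the silent mark, was at 8.38 and 8.72 FPKM in WT, 6.88 and 5.04 in KO, 9.68 in HET and 7.58 in MUT. The groups did not overlap, but KO 1 and KO 2 were farther apart on the log2(FPKM + 1) scale than for any other member (-0.47, SE 0.13, adjusted p = 0.0120), and the call was lost without WT 2 (0.0639) or KO 2 (-0.28, 0.112). The demethylases of the Polycomb mark had the smallest falls of the 5: Kdm6a (UTX) fell by 0.31 (-0.31, adjusted p = 0.0363) and Kdm6b (JMJD3), on a row shared with Tmem88, by 0.30 (-0.30, adjusted p = 0.0376). Kdm6a lost its call without WT 1, WT 2 or KO 1 (adjusted p = 0.0640, 0.181 and 0.214), and Kdm6b without WT 1, WT 2 or KO 2 (0.201, 0.0662 and 0.222). Both were also lost after quantile normalization (0.127 and 0.0519) and with no filter on low values (0.106 and 0.103). Kdm4c differed by 0.13 in KO and -0.40 in MUT.

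The same genes were then set side by side in the E861A background, where 1 library a group allows no test. In MUT against HET, 6 members were at least 2-fold lower (Jarid2, Phc1, Ezh2, Wdr5, Smarcd1 and Suv39h2), beside 8.77% of all tested rows, and 0 were at least 2-fold higher, beside 4.93%. Of the 28 genes that fell in KO, 27 were also below their vehicle library in MUT, with Kmt2c as the exception, and the 4 that rose were above it. For all tested rows the shares were 91.9% of those lower and 94.7% of those higher in KO. Across the 42 members the 2 differences correlated at r = 0.942 (0.869 over all tested rows). By rank the members and all tested rows were closer, at 0.856 and 0.829. The 2 contrasts share no library but share the treatment, and genes are not independent replicates.

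Across the 3 libraries of each treatment, 28 members had all values with 4OHT below all vehicle values (29.3% of all rows did), 4 had all above (30.6%) and 10 overlapped. The 28 are not quite those that fell in KO: Kmt2c and Suv39h1 overlapped, while Rnf2 and Smarca4 did not. The difference between the 2 effects, (MUT - HET) - (KO - WT), was called for 0 members in limma, against 4.01% of all rows. Before adjustment it stood under 0.05 for 3 members, beside 17.3% of all rows. These were Kmt2c (difference 0.52, limma adjusted p = 0.228), Kdm4c (-0.54, adjusted p = 0.176) and Chd1 (-0.44, adjusted p = 0.27). For Jarid2 and Ezh2 the difference was 0.10 (95% interval -0.32 to 0.52) and 0.32 (-0.10 to 0.74). This fit assumes that HET and MUT vary like the replicated groups.

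**Figure D4:**
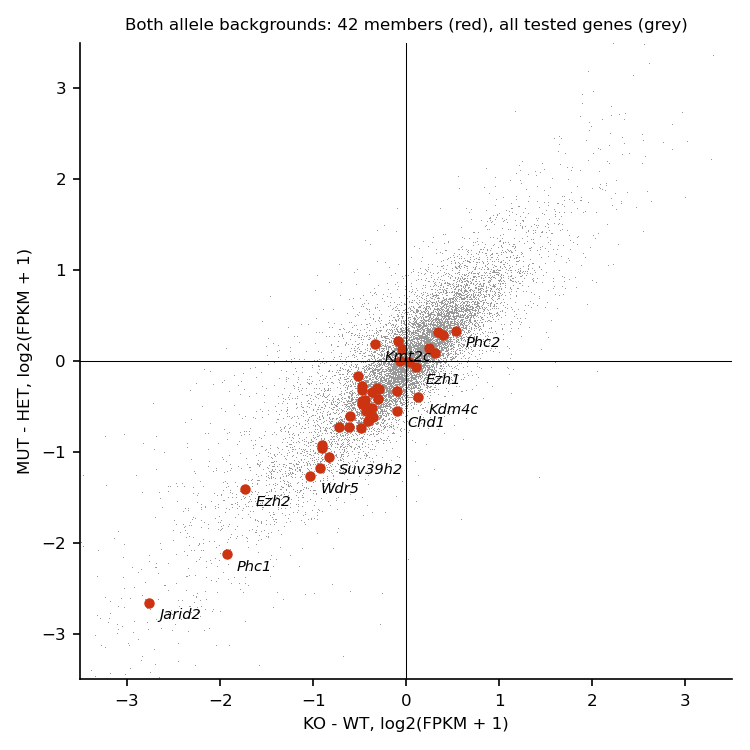
Each point is a gene: KO minus WT on the horizontal and MUT minus HET on the vertical axis, both on the log2(FPKM + 1) scale, with the 42 members in red and all tested rows in grey. Grey points beyond the axis limits are not drawn. The members lie along the diagonal (r = 0.942, and 0.856 by rank), with Jarid2, Phc1 and Ezh2 at the lower left. Over all tested rows the values were 0.869 and 0.829.

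Other genes of the same complexes and families, taken with 12 heterochromatin readers and cofactors, moved in both directions. Of 111 such genes listed, 110 were tested; 25 rose, 42 fell and 43 were not called, with a median log2 difference of -0.12 in KO. That is 60.9% called, 22.7% higher and 38.2% lower, beside 57.7%, 29.5% and 28.2% of all tested rows, so the share called is near the background. Among 8 other PRC2 genes 4 fell and 1 rose: Epop, a cofactor of pluripotent cells, fell by 2.93 (-2.93, SE 0.23) and Mtf2, which binds PRC2 to CpG islands, went from 14.4 and 19.1 FPKM in WT to 7.66 and 7.93 in KO, whereas Aebp2 rose by 0.51. Other PRC1 genes again split, with 8 of 16 higher and 6 lower. Pcgf5, the RING partner of a variant PRC1 form, went from 4.33 and 5.49 FPKM in WT to 10.8 in both KO libraries. Rybp and L3mbtl2, of variant PRC1 forms, fell by 1.04 (-1.04) and 1.05 (-1.05).

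Of 13 other COMPASS genes 5 fell and 1 rose. The share called was 46.2% here, 55.6% for the other BAF genes and 53.8% for the other NuRD and CHD genes. These lie below the 57.7% of all tested rows. The shares lower were 38.5, 38.9 and 23.1%, beside 28.2%. Dpy30, a core subunit beside Wdr5, was at 82.5 and 93.8 FPKM in WT and 36.9 and 30.3 in KO (-1.37, SE 0.12), and Psip1 fell by 0.93 (-0.93), while the row that holds Pagr1a with Mvp and Prrt2 rose by 0.71. Of 18 other BAF genes tested 7 fell, Actl6a (-0.68) and Arid2 (-0.67) with the smallest p, and 3 rose, Dpf2 (0.78) and Bcl7b (0.45) with the smallest p. Among 13 other NuRD and CHD genes 3 fell and 4 rose. Sall4, which is also a pluripotency marker, went from 12.2 and 11.3 FPKM in WT to 0.427 and 0.181 in KO (-3.29, SE 0.13), and the remodeller Chd7 fell by 1.25 (-1.25); Chd2 rose by 0.78 and Mbd2 by 0.46.

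Of 16 other histone methylases 4 fell, among them Kmt5c (-1.35) and Prmt5 (-0.40), and 3 rose, among them Smyd3 (0.46) and Nsd3, on a row shared with Ppapdc1b (0.39). That is 43.8% called and 25.0% lower, both below the 57.7% and 28.2% of all tested rows. Of 14 other demethylases 7 fell, among them Kdm7a (-0.90) and Kdm3a (-0.54), and 2 rose, Kdm4a (0.54) and Kdm1b (0.58). Of 12 heterochromatin readers and cofactors 6 fell and 3 rose. Lmnb1, which encodes lamin B1, was at 61.2 and 59.7 FPKM in WT and 6.57 and 6.48 in KO (-3.03, SE 0.09). Cbx5, which encodes HP1 alpha, fell by 0.98 (-0.98), while Daxx rose by 0.66 and Zfp809 by 0.51. All of these values passed limma at an adjusted p under 0.05.

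**Figure D5:**
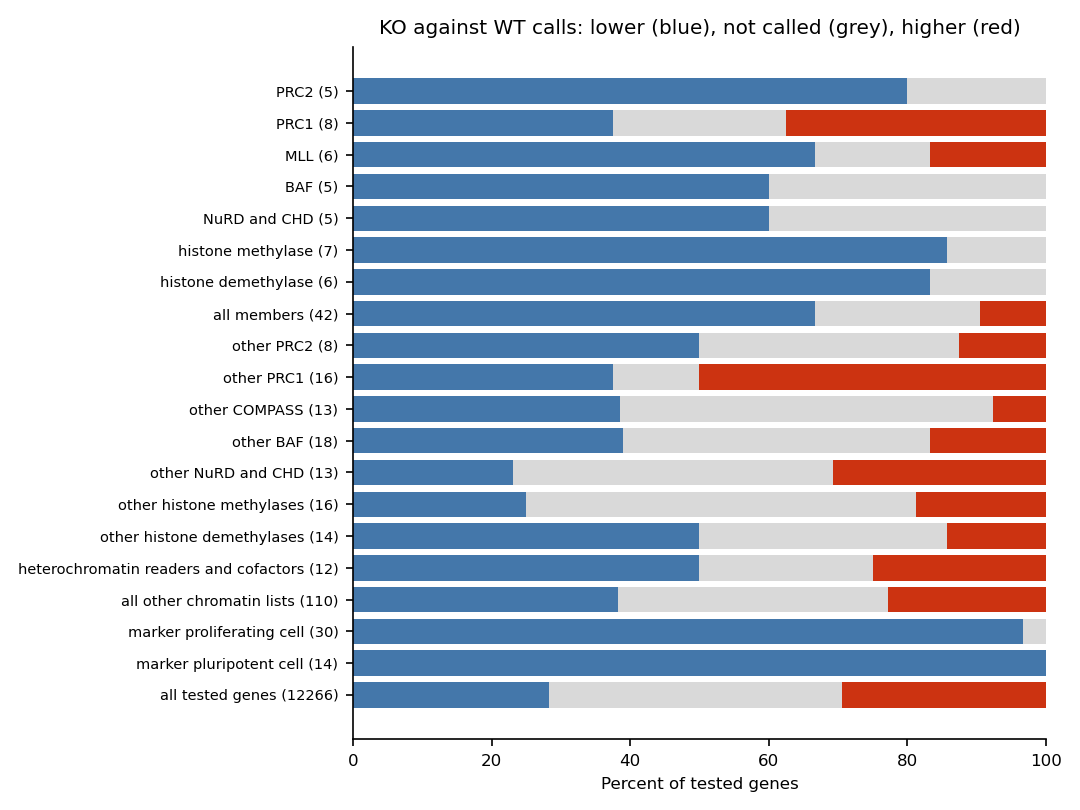
Percent of tested genes lower (blue), not called (grey) and higher (red) in KO against WT, for each complex, for the lists of other chromatin genes, for 2 marker lists and for all 12266 tested rows, with the number of genes in brackets. Lower calls make up 66.7% of the 42 members and 28.2% of all rows, and PRC1 and the other PRC1 genes have the largest shares of higher calls.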

How the data were processed

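Total RNA of 6 libraries was sequenced after Ribo-Zero treatment, per the labels' protocols. The authors deposited 1 FPKM value for each gene row and library, as the file headers name it, written with decimal commas. The submitters' processing notes name Cufflinks 2.2.1, Bowtie2 2.3.0 and TopHat2 2.1.1, and the builds mm10 and GRCm38, without roles. Which annotation, strand setting or scaling was used is not given in the sources used here. Antisense and overlapping genes therefore cannot be told apart. No reads were recovered and no count test was run.

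Each file has 24879 rows. The 1021 unnamed rows, with 8.26 to 14.2% of the summed FPKM, were left out, and symbols on several rows (Kmt2d among the members) are represented by the row of highest mean. Rows entered the tests with 1 FPKM or more in 2 or more of the 6 libraries. Tests used limma 3.58.1 in R 4.3.3 on log2(FPKM + 1) (lmFit, eBayes with trend, two-sided, Benjamini-Hochberg over all 12266 rows), a scale that understates changes of low genes; the WT and KO libraries alone entered the KO against WT fit, and all 6 the fit of the difference between effects. Fold ratios are of mean FPKM. The WT and KO pairs appeared to differ by more than counting error, with a median chi-square of 1.55 and 1.98 against 0.455. These came from counts rebuilt in 919 and 852 single-transcript genes, with the rough depth estimate and an assumed fragment length of 200 bases. How far errors in either move the chi-square was not tested. The labels do not say that replicates are separate cultures, so p-values cover only the spread between these samples. SE and 95% intervals are limma's.

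The members, the gene lists, the motifs and the gene pairs set side by side were chosen with earlier results of these data known. A member was given in every library if it was among the 3 of smallest p in its complex, moved by a log2 of at least 1 in either contrast, was called for the difference, or was not called in KO but differed by over 0.5 in MUT against HET; Ezh1 was added after its values were seen. From each other list, the 2 genes of smallest p in each direction were named; 1 of these is not reported here. The alternatives were other pseudocounts, filters, scalings, row rules and fits, a replicate block, and leaving out each replicate. Promoter windows are RefSeq's on GRCm38.p6, in the gene's direction.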

Additional observations from a re-analysis of the deposited data

How the results depend on the processing

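Of the 32 calls in KO against WT, 18 held in every alternative and 14 were lost in at least 1. With no filter on low values, 20 members were called (0 higher, 20 lower, and 35.5% of all rows), and Phc2 (limma adjusted p = 0.0531) and Cbx7 (0.0734) were lost at this setting alone. Ring1, Cbx2, Cbx8, Arid1a, Hdac2, Dot1l and Kdm4b were lost here too, in addition to the settings given for each above. The other settings gave 28 to 34 called members: 32 with either pseudocount, 29 of 38 with a filter of 5 FPKM, 33 with median-of-ratios scaling, 28 with quantile normalization and 29 of 39 without rows that name several genes. Leaving out 1 replicate gave 24 to 31: WT 1 left 25, WT 2 left 26, KO 1 left 31 and KO 2 left 24, while the share of all rows called was 46.8 to 55.8%. The replicate block gave 34 called members (5 higher, 29 lower; 64.9% of all rows, against 57.7% without it); with 2 pairs the numbers do not show that samples were paired. Members called for the difference between effects stayed at 0 in every setting that kept all 6 libraries, the replicate block included. With the filter, 3.51 to 9.71% of all rows were called at these settings. With no filter on low values 0 of 17762 rows were called, so the 0 there says nothing about the members. Members at 2-fold in MUT against HET numbered 5 to 7, and members without overlap 32 to 34.

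Uncalled members changed sign: Kmt2a to 0.05 with quantile normalization, and Ehmt2 to -0.02 (median-of-ratios) and -0.06 (quantile). With 1 replicate left out, Ehmt2 ran from -0.03 to 0.10, Smarcc2 from -0.19 to 0.02 and Chd1 from -0.22 to 0.01. The medians of the complexes kept their sign except PRC1 in KO, 0.04 with quantile normalization. MLL in KO moved to -0.55 with a pseudocount of 0.1 and -0.23 with quantile normalization; BAF to -0.48 (median-of-ratios) and -0.45 (quantile) in KO, and -0.50 and -0.51 in MUT; NuRD and CHD in KO to -0.47 (quantile); histone methylases to -0.49 in KO (median-of-ratios) and -0.68 in MUT (pseudocount of 0.1). The causes were not tested. Rescaling moved the median of all rows to between -0.03 and 0.06. How far depth limits the precision of members at a few FPKM, such as Cbx2, Cbx8 and Kmt2c, was not tested. Their SEs were 0.12, 0.13 and 0.12, on a log2(FPKM + 1) scale that understates changes of low genes.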

Other observations

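Between the vehicle libraries of the 2 backgrounds no member differed 2-fold, but the members leaned towards higher levels in HET. HET minus WT had a median of 0.13 over the 42 members, beside 0.01 over all tested rows, and ran from -0.37 (Bmi1) to 0.53 (Cbx2) on the log2 scale, with 0 members at 2-fold. Between replicates the median gap, taken without sign, was 0.13 in WT, where it was largest for Cbx7 (0.53). In KO it was 0.10, and largest for Kdm4b (0.38). These unsigned gaps are not the same measure as the signed median of HET minus WT.

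The order of the members by level changed between vehicle and 4OHT. Jarid2 ranked 22 of 42 by FPKM in WT and 21 in HET, and 42 in KO and 38 in MUT. Ezh2 went from 15 and 11 to 29 and 20, and Phc1 from 18 and 10 to 31 and 30. Ring1, on its shared row, was 2 and 3 with vehicle and 1 in both KO and MUT. These ranks describe single libraries or means of 2, and neighbours in the order differ by less than the gap between replicates in many places.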
